A study of Mus musculus with 2 samples.

Results

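The genes described here are 40 that serve the endoplasmic reticulum (ER) and the secretory pathway: chaperones, disulfide isomerases, collagen-folding proteins, regulators of ER stress, the translocon with signal peptidase, and vesicle transport. They were taken by symbol from the gene list shared by both matrix files, and all 40 of the listed symbols were present among 28692 genes. Secreted proteins enter the ER through the translocon, lose their signal peptide, fold with the help of chaperones and disulfide isomerases, and leave in COPII-coated vesicles. Collagen needs helpers of its own in the ER, among them the chaperone HSP47, which is encoded by Serpinh1. When unfolded proteins accumulate, the sensors IRE1, PERK and ATF6 raise transcription of many chaperone genes, a programme called the unfolded protein response. Fibroblasts, the main collagen-secreting cells of the lung, depend on this machinery.

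The cells came from lungs of Lepr-Cre;Rosa26-tdTomato mice aged 8 to 10 weeks that had received bleomycin, an anticancer agent that scars the lung and serves as a model of fibrosis, or saline. Both groups carried the same alleles: Cre driven by the leptin receptor gene Lepr switches on tdTomato for good, so the label marks past as well as present Lepr activity. Sorted tdTomato-positive cells went through droplet capture, with 1 library per treatment. The labels state neither how pure the sort was nor the number of mice, the dose or the day. Every difference below therefore compares a pair of libraries, or groups of cells within 1 library, with no replicate check and no test.

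The bleomycin library held 61537182 unique molecular identifiers (UMIs) in 4473 barcodes and the saline library 37570380 in 5455, of which 4308 and 5195 were kept as cells with medians of 12300 and 6302 UMIs. The libraries shared 33 barcode sequences, 31 of them kept. Fibroblast-like cells were 3518 after bleomycin and 3562 after saline, and the other classes with at least 100 cells in each library were alveolar macrophages (316 and 640) and endothelial cells (185 and 110). Names of cell types stand for cells with the markers of that type. Clusters were made without the 40 genes and without collagen genes, so that neither could define a state. Levels are UMIs per 1000000 UMIs of a class and library (UPM), which do not correct for gene length, so levels are compared between cells and not between genes. Intervals are exact at 95% and cover counting error only. The words rose and fell are kept for genes with at least 50 UMIs and 20 UPM in the higher group and a difference of 2-fold or more, and genes under those minimums were not tested.

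Promoters of many ER chaperones carry the sequence through which ATF6 is known to act, the ER stress element. It was searched for on both strands as CCAAT and CCACG with any 9 bases between them, and its shorter relative ERSE-II as ATTGG and CCACG with any 1 base between them, in RefSeq windows from 250 bases before to 50 bases after each start (GRCm38.p6), which were at hand for 33 of the 40 genes. One or the other was found in 9 of 33 members (Calr, Canx, Creld2, Dnajb11, Dnajc3, Herpud1, Hsp90b1, Hspa5 and Pdia6), against 0.181% of 27025 genes. Among members classed as induced by ER stress they were in 8 of 14, and among the other members in 1 of 19, Canx. The windows below show the element in Hspa5, which fell, and in 5 further members of this group that did not pass the 2-fold rule, read 5′ to 3′ on the strand of the gene, with the element in capitals. In Calr, Creld2 and the second element of Hsp90b1 it lies in the opposite orientation.
Hspa5, chr2:34772010-34772058, plus strand: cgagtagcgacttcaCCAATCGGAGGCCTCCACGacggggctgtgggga
Hsp90b1, chr10:86705518-86705671, minus strand: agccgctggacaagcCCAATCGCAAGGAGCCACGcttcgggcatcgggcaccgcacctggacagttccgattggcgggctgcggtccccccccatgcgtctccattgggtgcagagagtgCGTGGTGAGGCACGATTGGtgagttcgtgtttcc
Calr, chr8:84847060-84847108, minus strand: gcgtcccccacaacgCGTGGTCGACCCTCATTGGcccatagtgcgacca
Creld2, chr15:88819505-88819553, plus strand: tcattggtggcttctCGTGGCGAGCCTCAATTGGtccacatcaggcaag
Pdia6, chr12:17266476-17266524, plus strand: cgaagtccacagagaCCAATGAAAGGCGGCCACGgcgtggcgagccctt
Herpud1, chr8:94386362-94386402, plus strand: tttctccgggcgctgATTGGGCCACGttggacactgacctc

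A second motif, TGACGTG, is the core of the element bound by XBP1 and by the CREB3 family, to which Creb3l1 belongs. It was found in 6 of 33 members, Copb1, Hspa5, Kdelr3, Mia3, Sec23a and Sec24d, against 2.22% of genes, so that 5 of the 6 encode transport proteins. It shares no base with the ER stress element in the promoter of Hspa5. The ATF4 site TGATGCAA was found in Herpud1 alone among the members, against 1.03% of genes. The windows of a pair of transport genes are shown with the core in capitals, in Kdelr3 as its reverse complement. A match is a description of these letters and not evidence of binding.
Kdelr3, chr15:79516364-79516400, plus strand: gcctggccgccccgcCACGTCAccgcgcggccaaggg
Sec24d, chr3:123267455-123267491, plus strand: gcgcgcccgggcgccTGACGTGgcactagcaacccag

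In fibroblasts as a whole the module did not move as a block between treatments. Of 40 genes, all of which passed the minimum on counts, 1 rose and 4 fell, where 6.12% and 9.63% of 5880 genes tested did so, and 35 passed neither way. The median log2 ratio of bleomycin over saline was -0.26 over the members and -0.01 over all genes tested. Chaperones and stress regulators lay below 0, and 6 of 8 translocon and signal peptidase genes lay above it. The sum of the 16 stress-induced members was 2666 UPM after bleomycin and 4169 UPM after saline (log2 ratio -0.64), and all 16 were below 0. The sum of the 8 translocon and signal peptidase genes was 2396 UPM after bleomycin and 1684 UPM after saline (log2 ratio 0.51). A cell held a median of 13611 UMIs after bleomycin and 6831 after saline, and on average 137 UMIs of the module after bleomycin and 71.3 after saline. The 4 genes that fell were slightly lower per cell too, with Hspa5 at 5.53 UMIs after bleomycin and 5.98 after saline. The other stress-induced members were higher per cell after bleomycin, among them Hsp90b1 (5.27 and 3.93 UMIs) and Xbp1 (2.47 and 1.65). Their lower UPM is therefore a lower share of UMIs, not fewer UMIs per cell. The part of depth was not tested.

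**Figure D1:**
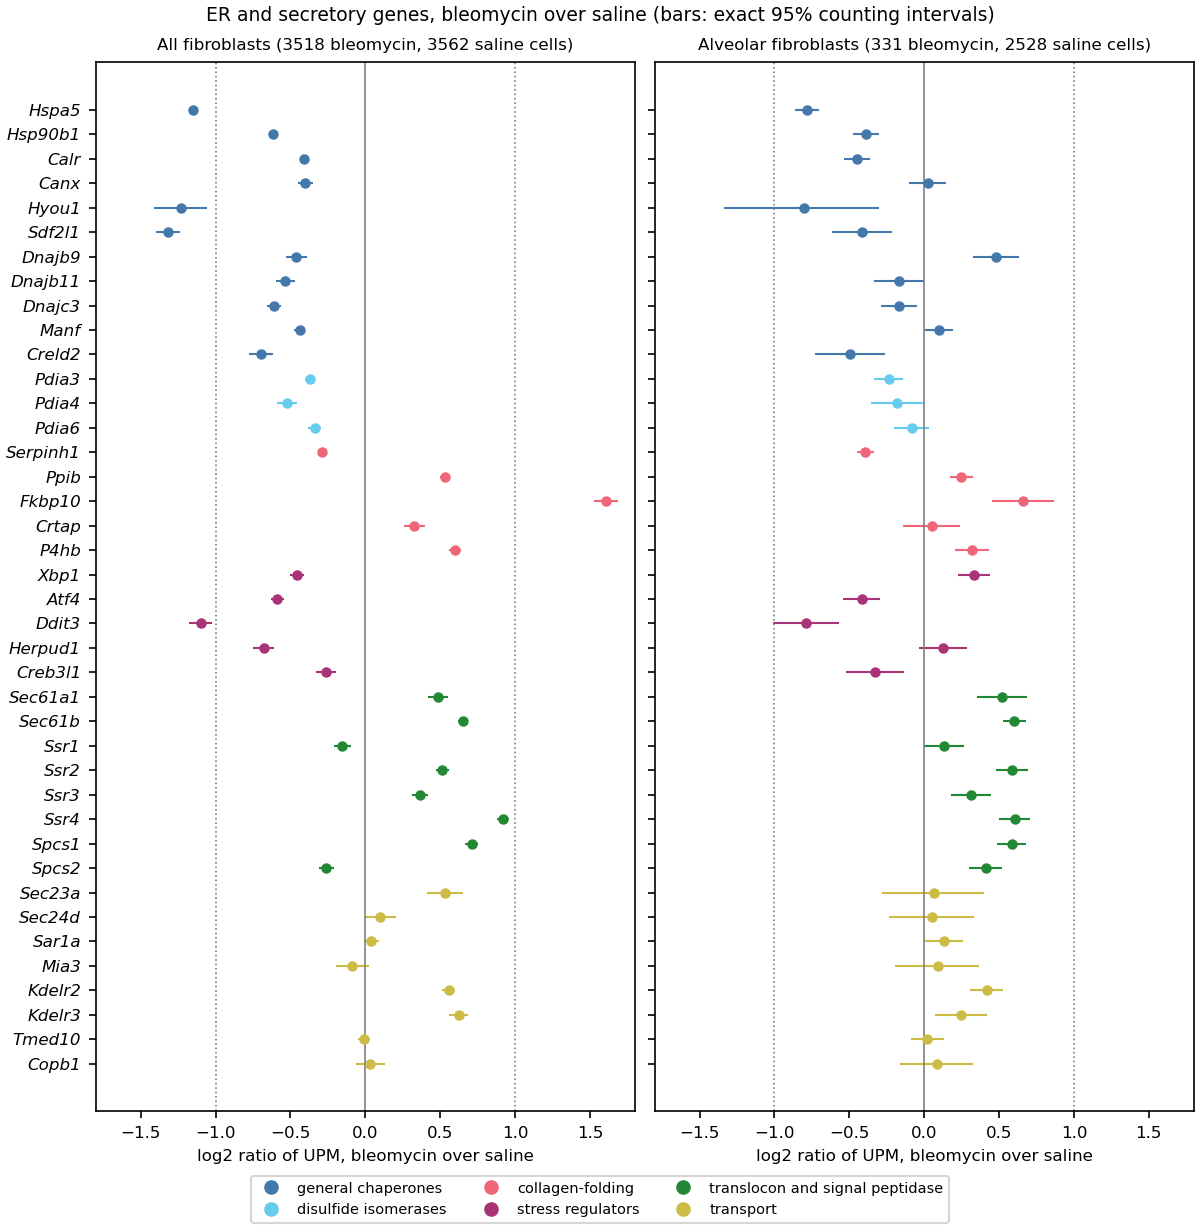
Log2 ratios of UPM, bleomycin over saline, of the 40 genes in all fibroblasts (left) and in alveolar fibroblasts (right), coloured by role, with exact 95% counting intervals that leave out the spread between mice. Dotted lines mark a 2-fold difference: Fkbp10 lies right of them in all fibroblasts and Hspa5, Hyou1, Sdf2l1 and Ddit3 lie left, while no gene reaches them in alveolar fibroblasts.

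Hspa5 encodes BiP, the ER chaperone that also holds the stress sensors inactive. Its level was 373 UPM (368 to 379) in bleomycin fibroblasts, against 827 UPM (816 to 838) in saline fibroblasts, and it fell by 1.15 on the log2 scale. Sdf2l1, a partner of BiP in mammals, had 44.5 UPM after bleomycin and 111 UPM after saline and fell by 1.30. Hyou1, which exchanges the nucleotide of BiP, had 9.15 UPM after bleomycin and 21.5 UPM after saline and fell by 1.15. The other BiP cofactors among the members did not pass: Dnajb9, Dnajb11 and Dnajc3 lay at -0.45, -0.53 and -0.61 and Manf at -0.44. The other 8 general chaperones lay between -0.68 (Creld2) and -0.40 (Canx), short of the threshold, and included Hsp90b1, which encodes GRP94, at 355 UPM after bleomycin and 544 UPM after saline.

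The regulators were lower too, and 1 of 5 passed the threshold. Ddit3, which encodes CHOP, a transcription factor that PERK signalling raises through ATF4, had 51.3 UPM in bleomycin fibroblasts, against 110 UPM in saline fibroblasts, and fell by 1.08. Atf4 had a log2 ratio of -0.58, Xbp1, whose mRNA IRE1 splices, -0.45, and Creb3l1, which encodes OASIS, a membrane-bound factor known to drive collagen transcription in bone, -0.26. The 9 genes with either ER stress element named above lay between -1.15 (Hspa5) and -0.34 (Pdia6), all below 0, while the 24 members with a window and neither element lay 12 below and 12 above 0, between -1.30 (Sdf2l1) and 0.92 (Ssr4). The 6 stress-induced members among those 24 were also all below 0. Disulfide isomerases lay between -0.52 (Pdia4) and 0.60 (P4hb).

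Of the 5 collagen-folding genes, 1 rose and 0 fell, 4 lay above 0, and the sum was 2491 UPM after bleomycin and 2305 UPM after saline (log2 ratio 0.11). Fkbp10 (chr11:100415697-100424824, mm10) encodes FKBP65, a proline isomerase that collagen folding and cross-linking need. It had 176 UPM (173 to 180) after bleomycin, against 57.9 UPM (55.0 to 60.9) after saline, and was the 1 gene that rose (log2 ratio 1.59). P4hb, the isomerase that is also the beta subunit of collagen prolyl hydroxylase, had 340 UPM after bleomycin and 225 UPM after saline (0.60). Ppib, which encodes cyclophilin B, had 644 UPM after bleomycin and 446 UPM after saline (0.53). Crtap, its partner in the prolyl 3-hydroxylase complex, had 118 UPM after bleomycin and 93.9 UPM after saline (0.32). Serpinh1 was not higher: 1213 UPM after bleomycin and 1482 UPM after saline (-0.29). Collagen genes themselves stood at 18680 UPM in bleomycin fibroblasts and 8180 UPM in saline fibroblasts.

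Of the translocon genes, Ssr4, a subunit of the translocon-associated complex, had 447 UPM after bleomycin and 236 UPM after saline (0.92), just under the threshold. Sec61b, a subunit of the channel, had 640 UPM after bleomycin and 408 UPM after saline (0.65). Spcs2 of the signal peptidase complex lay lowest at -0.26. Transport genes ranged from -0.08 (Mia3, which encodes the collagen cargo receptor TANGO1) to 0.62 (Kdelr3, one of the receptors that return escaped chaperones to the ER). Sec24d, the cargo-binding COPII subunit whose loss impairs collagen export in zebrafish, had 47.2 UPM after bleomycin and 44.0 UPM after saline, with a ratio whose interval spans 0 (-0.0026 to 0.20). Beyond the members, genes of the surrounding pathway were read from 7 lists: sensors and their targets (6 of 14 tested), degradation (11 of 13), oxidation and other isomerases (9 of 10), glycosylation (10 of 10), targeting and translocation (11 of 12), COPII and cargo (13 of 16) and COPI with Golgi return (14 of 14). Of the 74 tested, 2 rose and 1 fell, beside the 6.12% and 9.63% of all genes. Ppp1r15a, which encodes GADD34 and reverses the translation block of PERK, fell by 2.26 (51.7 UPM after bleomycin and 251 UPM after saline). Pdia5, a disulfide isomerase, rose by 2.00 (38.0 UPM after bleomycin and 8.77 UPM after saline), and Prdx4, the ER peroxiredoxin, rose by 1.18 (210 UPM after bleomycin and 91.7 UPM after saline).

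The saline cells stood apart in another respect. A set of 7 markers of the immediate early response (Fosb, Egr1, Nr4a1, Atf3, Junb, Ier2 and Il6) summed to 1927 UPM in bleomycin fibroblasts and 7027 UPM in saline fibroblasts. Their part in the lower stress-induced levels was not tested. Without the immediate early and inflammatory clusters 3 of the 4 falls remained. The median log2 ratio there was -0.20 over the members and -0.02 over all genes tested. The share of all genes that fell in that setting is not given, so the count is not read as a result about the members. Hspa5 and Ddit3 no longer passed when each library was clustered alone (-0.99 and -0.81) or at resolution 0.5 (-0.99 and -0.94).

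In alveolar fibroblasts no member passed the 2-fold rule. They were 331 cells after bleomycin, mostly of cluster 10, and 2528 after saline, mostly of clusters 1, 3, 5 and 8. Of 40 genes 0 rose and 0 fell, where 1.52% and 3.65% of 5670 genes tested did so, and the median log2 ratio was 0.08 over the members and 0.06 over all genes tested. Hspa5 had 460 UPM after bleomycin and 791 UPM after saline (-0.78, interval -0.86 to -0.70) and Ddit3 60.9 UPM after bleomycin and 105 UPM after saline (-0.78). Fkbp10 had 77.6 UPM after bleomycin and 49.0 UPM after saline (0.65). All 8 translocon and signal peptidase genes were above 0, with Ssr4 (0.60), Sec61b (0.60) and Ssr2 (0.59) highest among them. Xbp1 and its target Dnajb9 lay above 0 here (0.33 and 0.48), where both lay below 0 in fibroblasts as a whole. Immediate early markers were again lower after bleomycin, at 3513 UPM, against 7187 UPM after saline, and their part in these values was not tested. Between the largest clusters alone, bleomycin cluster 10 over saline clusters 1 and 3, 0 of 39 genes rose or fell, where 2.27% and 3.15% of all genes did so.

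Adventitial fibroblasts (179 cells after bleomycin, cluster 18, and 265 after saline, cluster 13) had 39 genes tested. In them 0 rose and 2 fell, Sdf2l1 by 1.11 and Hspa5 by 1.02, where 3.61% and 6.23% of 4158 genes did so, and Hyou1 was not tested. The median was -0.17 over the members and 0.0040 over all genes tested. Hspa5 had 457 UPM after bleomycin and 927 UPM after saline, and all 15 stress-induced genes tested lay below 0. Serpinh1 had 1269 UPM after bleomycin and 2284 UPM after saline (-0.85). Immediate early markers summed to 2817 UPM after bleomycin and 7545 UPM after saline, and their part in these differences was not tested.

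**Figure D2:**
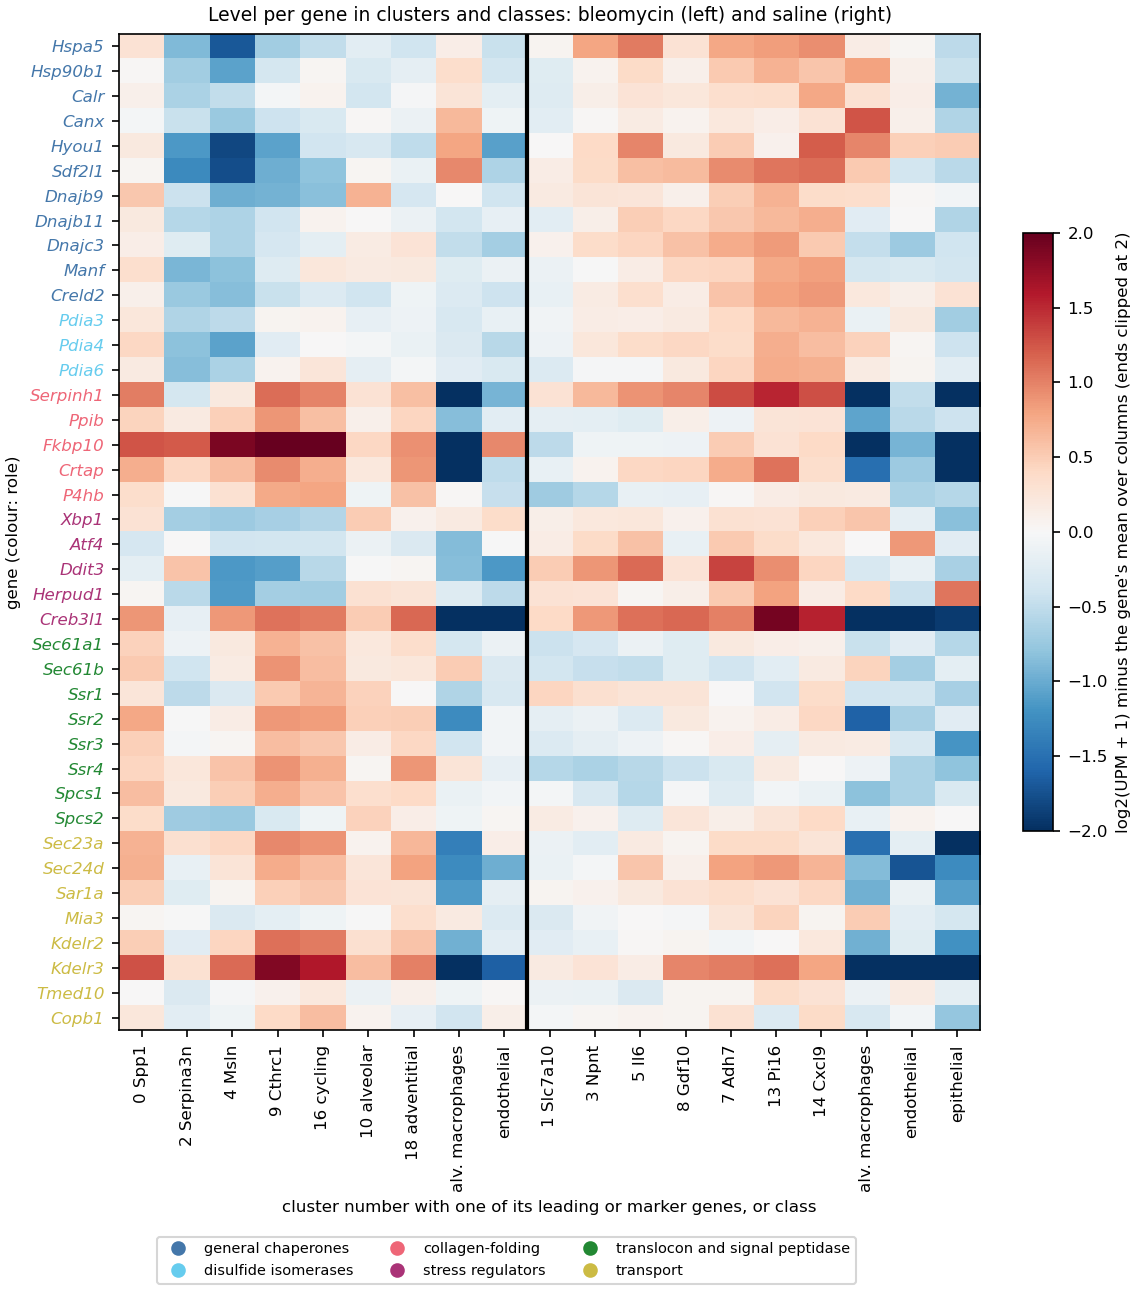
Level of each gene (log2 of UPM + 1, minus the gene's mean over the columns) in clusters and classes, bleomycin left of the black line and saline right of it. Chaperones are low in the bleomycin Msln cluster 4 and high in the saline Pi16 and Cxcl9 clusters 13 and 14. Fkbp10 is high in bleomycin clusters 4 and 9 and lower in bleomycin cluster 10. Serpinh1, Fkbp10, Creb3l1 and Kdelr3 are low in alveolar macrophages.

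Within the bleomycin library fibroblast states were compared. Cells of the 3 clusters named fibrotic (4, 9 and 16; 1243 cells) were set against alveolar fibroblasts, and of 39 genes tested 1 rose and 5 fell, where 9.15% and 12.8% of 5837 genes did so, and the share of members that fell was at that background. The gene not tested was Hyou1, and the median log2 ratio was 0.0039 over the members and -0.10 over all genes tested. Fkbp10 had 237 UPM in fibrotic and 77.6 UPM in alveolar fibroblasts and rose by 1.60. Dnajb9 had 44.4 UPM in fibrotic and 139 UPM in alveolar fibroblasts (-1.63), and with it Sdf2l1 (-1.33), Herpud1, a degradation factor of the ER membrane (-1.23), Xbp1 (-1.18) and Ddit3 (-0.99 with 1 UPM added to both levels, just past 2-fold without it) fell. All 5 collagen-folding genes were above 0 and the sum of the stress-induced members was 2208 UPM in fibrotic and 3172 UPM in alveolar fibroblasts. Immediate early markers were at 1032 UPM in fibrotic and 3513 UPM in alveolar fibroblasts, and the median depth was 17664 UMIs in fibrotic and 8905 UMIs in alveolar fibroblasts. Their part in the result was not tested. None of the 5 falls remained once clusters 0 and 2, whose naming as fibrotic fell short, were counted with the fibrotic cells, a choice made after seeing the data. None remained either when the 40 genes and the collagens took part in clustering.

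The bleomycin clusters differed widely among themselves. Cluster 9 (367 cells), led by Cthrc1, Postn and Grem1, held the most collagen of the large fibroblast clusters, 27675 UPM, and the most of the collagen-folding sum (3455 UPM), of the translocon sum (3097 UPM) and of the transport sum (1434 UPM). Against the alveolar cluster 10 its Fkbp10 and Kdelr3 rose (1.86 and 1.24), and Sdf2l1, Dnajb9, Xbp1 and Ddit3 fell. In that comparison 7.82% of all genes rose and 13.7% fell, beside 2 and 4 of 39 members. Cluster 4 (693 cells), led by Msln, S100a4 and Anxa8, held nearly as much collagen, 23355 UPM, with the lowest chaperone sum of these clusters, 1333 UPM. Against cluster 10, Fkbp10 rose there and 9 of 39 genes fell, among them Hspa5 (160 UPM in cluster 4 and 450 UPM in cluster 10), where 8.71% and 14.3% of all genes rose and fell. The 9 genes were lower per cell too, Hspa5 at 2.89 UMIs in cluster 4 and 4.29 in cluster 10, Manf at 3.34 and 3.54. The other general chaperones tested were higher per cell in cluster 4, among them Calr (6.47 and 3.72 UMIs) and Hsp90b1 (3.97 and 3.57). Their lower UPM is a lower share of UMIs, and the part of depth was not tested.

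Cluster 0 (945 cells), led by Spp1, Frzb and Fst, stood at the other end. Its Hspa5 was the highest, 632 UPM, and its stress-induced sum was 3649 UPM with collagen at 15405 UPM. No member rose or fell there against cluster 10, where 5.36% and 4.84% of all genes did so. Cluster 2 (776 cells, led by Serpina3n, Ctla2a and Eln) had the lowest sums of collagen-folding (1642 UPM) and transport genes (774 UPM) and a Ddit3 of 91.4 UPM, the highest of the large clusters. Without the 105 of its cells that belong to the Ddit3 and Asns cluster described further on, it was 54.1 UPM (49.2 to 59.3), beside 60.8 UPM in cluster 10. Against cluster 10, 0 genes rose in it and 5 of 39 fell (Sdf2l1, Dnajb9, Manf, Xbp1 and Spcs2), where 5.8% and 7.48% of all genes did so. In the cycling cluster 16 (183 cells) Fkbp10 rose against cluster 10 and Dnajb9, Herpud1 and Xbp1 fell, where 13.3% and 14.3% of all genes did so. Over the 7 large bleomycin clusters Hspa5 differed 3.93-fold between the highest and lowest, Fkbp10 3.73-fold and Atf4 1.29-fold, by UPM of the UMIs other than collagen.

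In the saline library the order was simpler. Cluster 1 (785 cells, led by Colq and Slc7a10) had the least collagen (4470 UPM) and the lowest sum of the module (7834 UPM), and the adventitial cluster 13 had the most of both among the large fibroblast clusters (15520 UPM of collagen and 12504 UPM of the module). Cluster 14 (241 cells, led by Cxcl9 and Saa3) had a module sum of 12450 UPM with collagen at 9362 UPM. Against clusters 1 and 3, 1 gene rose in it, Hyou1, and 0 fell, where 5.77% and 3.53% of all genes did so. Of the members 36 of 40 were above 0, but the share of all genes above 0 is not given, so this count is not read as a result about the members. Cluster 5 (586 cells), led by Il6, Tnfaip6 and Nr4a1, had the highest Hspa5, 1072 UPM, and 0 genes rose or fell against clusters 1 and 3, where 3.9% and 1.64% of all genes did so. Its immediate early markers were at 11886 UPM, the highest of these clusters.

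**Figure D3:**
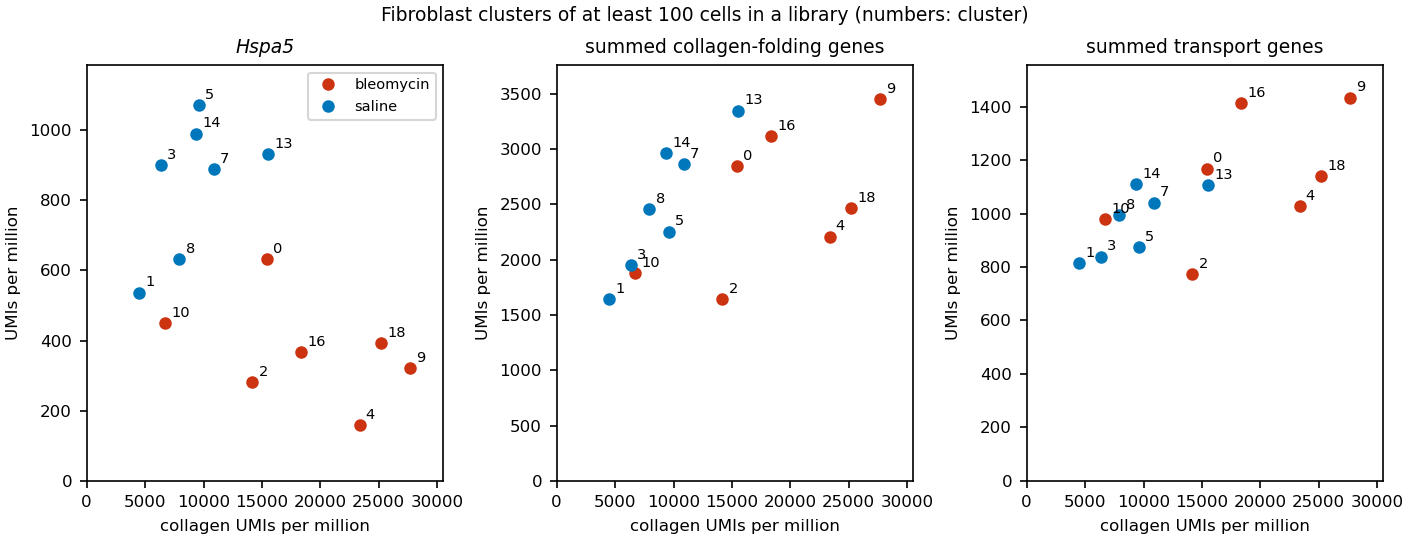
Collagen UPM (horizontal) against Hspa5, the summed collagen-folding genes and the summed transport genes (vertical, UPM), one point per fibroblast cluster of at least 100 cells in a library, numbered, bleomycin in red and saline in blue. In bleomycin, cluster 4 combines high collagen with the lowest Hspa5, while cluster 9 is highest in collagen and in both sums.

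Collagen and the module were then compared between groups of cells. The fibroblasts of each library were ranked by the share of their UMIs from collagen genes and cut into 5 groups of equal size (quintiles), and levels were taken as UPM of the UMIs other than collagen. In bleomycin the median cell had 57 collagen UMIs in the lowest quintile and 527 in the highest, and in saline 21 and 97. A gene is called higher or lower here with at least a 1.5-fold difference between the outer quintiles and the same minimum on counts. In bleomycin 12 of 39 genes tested were higher and 6 lower in the highest quintile, where 8.8% and 12.2% of 5739 genes were. In saline 18 of 40 were higher and 0 lower, where 13.6% and 10.2% of 5879 genes were. The median log2 ratio of the members was 0.14 in bleomycin and 0.55 in saline, and that of all genes tested -0.12 in bleomycin and -0.03 in saline.

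Collagen-folding genes followed collagen in both libraries. Their sum in bleomycin was 1875, 2322, 2493, 2676 and 3148 UPM from the lowest to the highest quintile (log2 ratio of the outer quintiles 0.75). In saline it was 1587, 1975, 2184, 2574 and 3187 UPM (1.01). Fkbp10 stood at 97.6 UPM in the lowest and 260.0 UPM in the highest quintile of bleomycin cells, and at 34.2 and 95.5 UPM in those of saline cells. All 5 genes of the group were called in bleomycin and 4 in saline, the exception being Ppib. Creb3l1 (1.14 in bleomycin and 1.04 in saline), Kdelr3 (0.98 and 0.97) and Sec24d (0.73 and 1.28) were called in both. Kdelr3 and Sec24d are the genes whose TGACGTG windows are printed above, and of the 6 members with that motif 5 lay above 0 in bleomycin, all but Hspa5, and 6 in saline. Of the 27 members with a window and no such motif, 13 lay above 0 in bleomycin and 24 in saline. The 5 carriers other than Hspa5 are not classed as stress-induced. They belong to the 18 members with a window that are neither stress-induced nor carry an ER stress element. Of those 18, 17 lay above 0 in bleomycin and 15 in saline. Whether the motif plays a part was not tested.

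The stress-induced genes did not keep one direction. In bleomycin their sum was 3123, 2972, 2744, 2422 and 2449 UPM from the lowest to the highest quintile (log2 ratio -0.35). In saline it was 3231, 3850, 4239, 4601 and 4951 UPM (0.62). In bleomycin 0 of 15 tested were higher and 5 lower (Sdf2l1, Dnajb9, Xbp1, Herpud1 and Ddit3), and in saline 9 of 16 were higher and 0 lower. Hspa5 was 425 UPM in the lowest and 316 UPM in the highest quintile after bleomycin (-0.42), and 568 and 981 UPM in those after saline (0.79). Ddit3 had -1.66 in bleomycin and 0.42 in saline, and Sdf2l1 -1.04 and 0.65. Of the 9 genes with an ER stress element, 8 were below 0 in bleomycin, all but Calr, and 0 were below 0 in saline. The 6 stress-induced genes with a window and no element were likewise all below 0 in bleomycin and above it in saline. Of the 18 other members with a window and no element, 1 was below 0 in bleomycin and 3 in saline. The difference between the libraries was not tested.

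**Figure D4:**
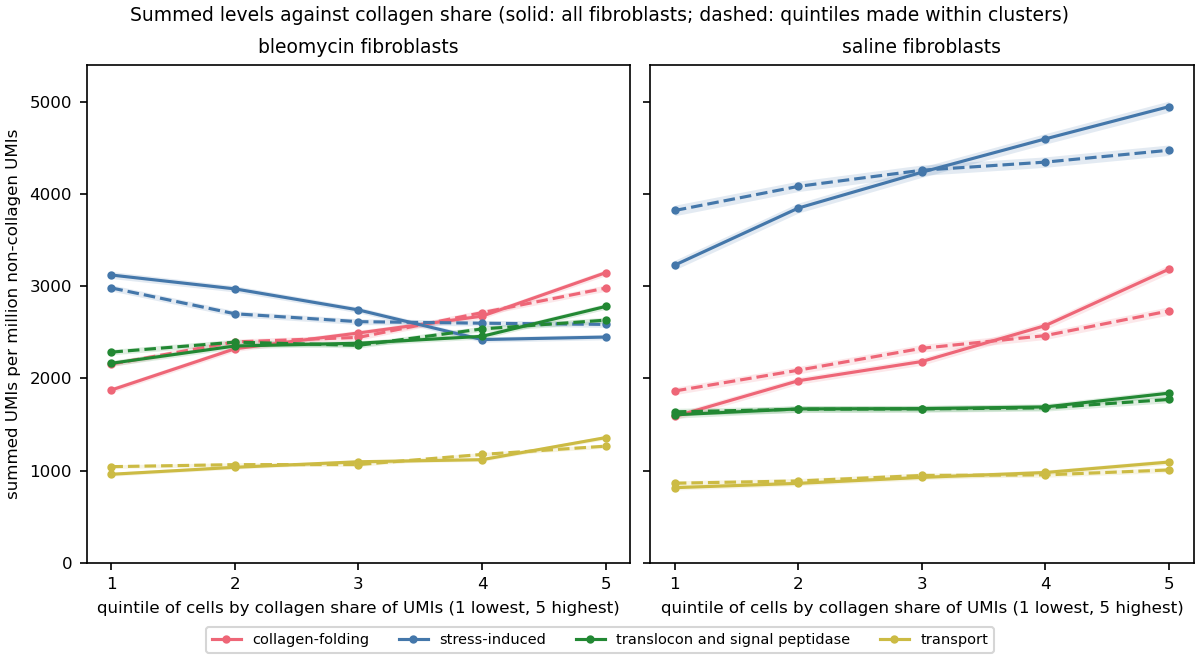
Summed levels as UPM of non-collagen UMIs (vertical) in quintiles of fibroblasts ranked by collagen share (horizontal), bleomycin left and saline right, with 95% Poisson bands. Collagen-folding genes climb in both libraries, while the stress-induced sum declines over the first 4 quintiles in bleomycin and climbs in saline, and both slopes are flatter where quintiles are made within clusters (dashed).

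Cluster make-up, depth and the immediate early markers moved along these quintiles. With the quintiles made inside each cluster, the collagen-folding ratio was 0.47 in bleomycin and 0.55 in saline, and the stress-induced ratio -0.21 in bleomycin and 0.23 in saline. In those quintiles 0 stress-induced genes were higher and 2 lower in bleomycin, where 5.09% and 3.84% of all genes were, and 0 were called in saline, where 3.01% and 0.956% were. The median depth was 10108 UMIs in the lowest and 15342 in the highest quintile of all bleomycin fibroblasts, but 13111 and 13743 in the quintiles within clusters. Ranking bleomycin cells by UMIs alone gave 0.77 for the collagen-folding sum, as much as collagen share did, and 0.12 for the stress-induced sum, with the sign turned round. In saline it gave 0.20 and 0.19. With quintiles within clusters and every cell thinned to 2000 UMIs, a pair of choices added after seeing the data, the collagen-folding ratio was 0.57 in bleomycin and 0.38 in saline, and the stress-induced ratio -0.063 in bleomycin and 0.19 in saline. Immediate early markers stood at 2306 UPM in the lowest and 1542 UPM in the highest quintile after bleomycin and at 5135 and 7933 UPM after saline, and within clusters at 1622 and 2059 after bleomycin and 7078 and 7054 after saline, and their part in these ratios was not tested.

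**Figure D5:**
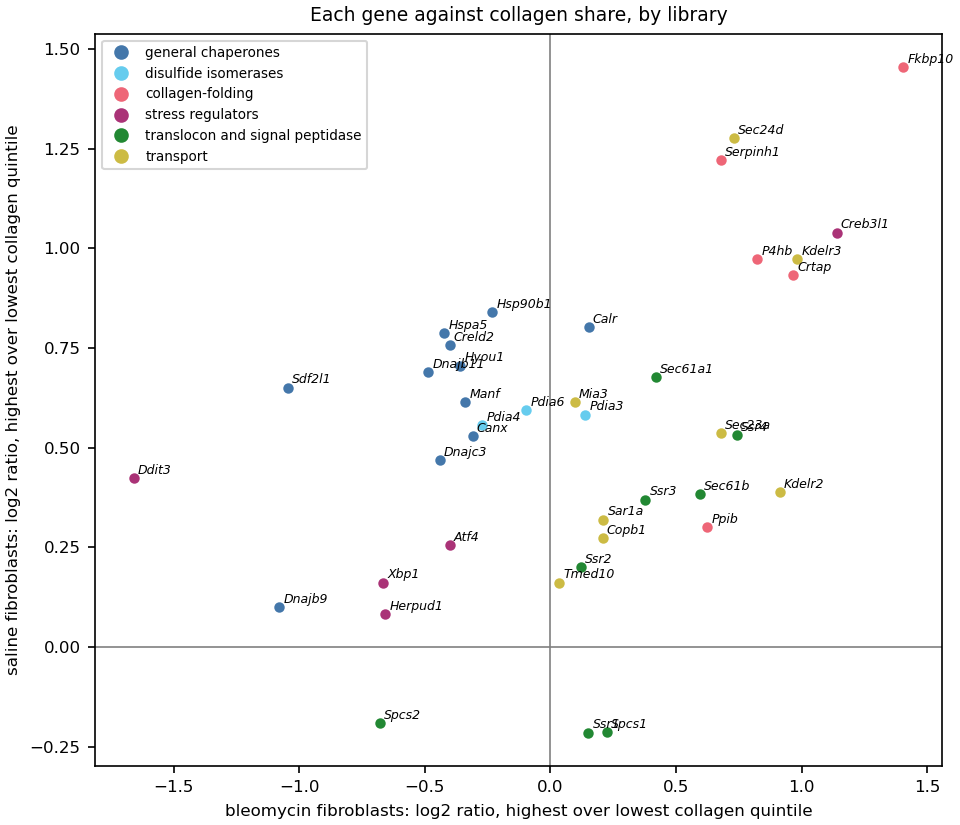
Each gene's log2 ratio between the highest and lowest collagen quintile in bleomycin (horizontal) and saline fibroblasts (vertical), coloured by role. Collagen-folding genes, Creb3l1 and Kdelr3 lie to the right and above 0 on both axes, and general chaperones other than Calr lie left of 0 and above it.

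A small group of bleomycin cells bore on the lower end of the collagen range. When that library was clustered alone, 139 cells formed a cluster led by Chchd10, Hist1h4h, Ddit3, Asns, Gadd45a and Cdkn1a. Ddit3 was not among the genes used for clustering, but the cluster was singled out after its values were seen, so its levels are a description. In the joint clustering 105 of these cells lay in cluster 2 and 22 in cluster 0. Over the other fibroblasts of the library, 3 of 39 genes rose and 0 fell, where 4.38% and 5.6% of all genes did so, and the median log2 ratio was 0.11 over the members and 0.16 over all genes tested. Ddit3 had 273 UPM (251 to 297) in the cluster and 48.8 UPM (46.6 to 51.0) outside it. Atf4 had 366 UPM inside and 167 UPM outside (1.13), and Sdf2l1 93.2 UPM inside and 46.1 UPM outside. Hspa5 (0.59) and Creld2 (0.90) lay above 0 short of the threshold, Xbp1 was near 0 (-0.07), and the collagen-folding sum was lower (-0.38). Targets of ATF4 in the same cells were higher as well: Trib3 at 59.5 UPM inside and 1.94 UPM outside, and Asns, asparagine synthetase, which led the cluster, at 86.3 UPM inside and 10.9 UPM outside. Neither target was barred from the clustering, so their levels describe the cluster and are not separate support.

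Of the cells in that cluster, 102 lay in the lowest collagen quintile of bleomycin fibroblasts and 0 in the highest. Without the cluster the log2 ratio of the outer quintiles was -0.24 for the stress-induced sum, against -0.35 with it, and 0.72 for the collagen-folding sum, against 0.75. For single genes, with no UPM added, it was -1.04 for Ddit3 without the cluster and -1.69 with it, -0.10 for Atf4 without it and -0.40 with it, and -0.29 for Hspa5 without it and -0.42 with it.

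Outside fibroblasts the collagen-folding genes differed from one another. In alveolar macrophages Serpinh1 stood at 4.45% of its fibroblast level after bleomycin and 5.87% after saline, and collagen genes themselves at 4.75% and 5.82%. Fkbp10, Creb3l1 and Kdelr3 lay between 3.04% and 8.74% of theirs in macrophages of both libraries, so these low levels are not read as expression by macrophages. P4hb stood at 79.1% of its fibroblast level in bleomycin macrophages and at 133% in saline macrophages, and Ppib at 39.9% in bleomycin and 50.03% in saline macrophages. The general chaperone sum there was 2876 UPM after bleomycin and 3283 UPM after saline, with Hspa5 at 570 UPM after bleomycin and 574 UPM after saline (log2 ratio -0.01, interval -0.12 to 0.10). Of 35 macrophage genes tested (not Fkbp10, Creb3l1, Kdelr3, Sec23a and Sec24d) 0 rose and 0 fell, where 2.77% and 5.55% of 5118 genes did so, and the median was -0.18 over the members and -0.12 over all genes. Atf4 lay lowest (-0.87) and Spcs1 highest (0.69). A saline macrophage cluster of 62 cells had the largest general chaperone sum of any cluster with at least 20 cells in a library, 5106 UPM (Hsp90b1 at 1332 UPM), while the main saline macrophage cluster had 3126 UPM.

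In endothelial cells 1 of 33 genes tested (not Sdf2l1, Hyou1, Ddit3, Sec24d, Mia3, Kdelr3 and Creb3l1) rose, Fkbp10, and 0 fell, where 10.9% and 7.04% of 4090 genes did so. The median was 0.033 over the members and 0.24 over all genes tested. Fkbp10 had 111 UPM after bleomycin and 29.1 UPM after saline (1.89), which was 62.9% and 50.3% of its fibroblast levels, beside 7.99% and 13.8% for collagen genes. The other collagen-folding genes lay between 34.2% (Serpinh1) and 62.7% (Ppib) of their fibroblast levels in bleomycin endothelial cells and between 38.1% (Serpinh1) and 76.0% (P4hb) in saline ones. The class held 70 lymphatic cells after bleomycin and 23 after saline. In lymphatic cells Fkbp10 was 182 UPM (155 to 211) after bleomycin and 48.8 UPM (15.9 to 114) after saline, the saline value resting on 5 UMIs, and in the blood vessel cluster 42.0 UPM (29.2 to 58.4) after bleomycin and 30.8 UPM (16.4 to 52.6) after saline. Smaller classes were not compared: the module summed to 8888 UPM in 48 bleomycin pericytes and 11439 UPM in 49 saline pericytes, to 5435 UPM in 99 bleomycin and 5382 UPM in 102 saline smooth muscle cells, and to 5462 UPM in 309 saline alveolar type 2 cells.

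Over all sorted cells 1 of 40 genes rose, again Fkbp10, and 2 fell, Sdf2l1 and Hyou1, where 4.99% and 9.47% of 6051 genes did so. The median was -0.077 over the members and -0.0040 over all genes tested. Fewer cells of a type and less RNA per cell cannot be told apart in such a sum. The make-up differed: epithelial cells were 5 after bleomycin and 469 after saline. Alveolar macrophages were 316 after bleomycin and 640 after saline, and endothelial cells 185 and 110.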

How the data were processed

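Transcripts of sorted tdTomato-positive lung cells were counted by droplet sequencing (3′ v2 chemistry), with 1 library after bleomycin and 1 after saline. What was deposited are UMI counts for each gene in each barcode, not normalized; the submitters' processing notes name Cell Ranger 2.1.1 and mm10.

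Barcodes with at least 500 genes, 1000 UMIs and at most 10% mitochondrial UMIs were kept. The lowest count of a cell was 4025 UMIs after bleomycin and 2310 after saline, both above that minimum. The part of this difference in the values per cell and in the make-up of the libraries was not tested. Scrublet's automatic threshold marked 4 bleomycin and 8 saline barcodes, under the 0.5% set for trusting it, so the 160 and 237 with the highest scores were left out. Cells were clustered in scanpy 1.11.5 (2000 variable genes per library, 30 components, 15 neighbours, Leiden resolution 1) without the 40 genes and 44 collagen genes. Clusters were named from marker lists: at least 3 markers in 25% of cells, the second lineage under 80% (90% within mesenchyme) of the first, and a 10-point lead for a kind. These thresholds were set after the clusters were seen.

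UMI counts were summed per class and library and scaled to UPM, with a prior of 1 UPM in log2 ratios. Ratios have exact conditional binomial intervals and levels exact Poisson intervals. The size rule was tried on counts simulated with counting error alone, which says nothing about the spread between mice or libraries. With 1 library per treatment no test across samples exists. Genes were named as the highest and lowest of each role, those past the size rule and a set followed throughout; others were picked after their values were seen. The members, the lists and the rules were chosen with earlier results of these data known, so no list is independent evidence. Positions are from GENCODE vM21 and promoters from RefSeq (GRCm38.p6). Other scalings, filters, clusterings, a 1.5-fold rule and other rankings by collagen were tried.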

Additional observations from a re-analysis of the deposited data

Results flagged for a closer look

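The stress-induced sum differed in sign between treatments: the log2 ratio of the highest over the lowest quintile of fibroblasts by collagen share was -0.35 in bleomycin and 0.62 in saline. With quintiles made within clusters it was -0.21 in bleomycin and 0.23 in saline. With cells also thinned to 2000 UMIs it was -0.063 in bleomycin and 0.19 in saline, and with cells ranked by UMIs alone it was 0.12 in bleomycin and 0.19 in saline, with no difference in sign. The difference was not tested, since each treatment is 1 library.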

How the results depend on the processing

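No paired analysis was possible because each treatment has 1 library. With a 1.5-fold rule, 6 genes rose and 6 fell over all cells (12.2% and 16.9% of all genes), 6 and 9 in fibroblasts (13.9% and 18.3%), 5 and 3 in alveolar fibroblasts (6.61% and 8.64%), 1 and 5 in alveolar macrophages (7.44% and 16.6%), 2 and 2 in endothelial cells (26.3% and 13.2%), and 5 and 11 in fibrotic over alveolar fibroblasts (15.5% and 23.9%). Falls over all cells numbered 1 without collagen, mitochondrial and ribosomal UMIs in the denominator, 1 with median-of-ratios scaling, 1 as a mean over cells and 0 after thinning to 2000 UMIs. In fibroblasts 2 falls were left at resolution 0.5 and 2 with libraries clustered alone. In alveolar fibroblasts 1 gene fell with a strict barcode filter, 1 with doublets kept and 2 at resolution 0.5, where 23 bleomycin cells bore the name. In macrophages 1 fell with libraries clustered alone. In endothelial cells 2 rose and 3 fell with no minimum on counts, and 1 fell at resolution 0.5, 1 with libraries clustered alone and 1 with the unnamed cluster 27 added. Fibrotic over alveolar fibroblasts had 2 rises after thinning, and 0 falls with the members and collagens kept in clustering or with clusters 0 and 2 added. Apart from the 1.5-fold rule, the share of all genes called under these settings is not given. The counts are therefore not read as results about the members.

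For the outer collagen quintiles, the collagen-folding ratio in bleomycin was 0.79 thinned, 0.47 within clusters, 0.57 within clusters and thinned, 0.98 by collagen UMIs per cell and 0.72 without the Ddit3 and Asns cluster. In saline it was 0.87 thinned, 0.55 within clusters, 0.38 within clusters and thinned, 0.20 by UMIs per cell and 0.89 by collagen UMIs. The stress-induced ratio in bleomycin was -0.38 by Col1a1, Col1a2 and Col3a1 alone, -0.24 thinned, -0.21 within clusters, -0.063 within clusters and thinned, -0.19 by collagen UMIs, -0.24 without that cluster, and 0.12, turned round, by UMIs per cell. In saline it was 0.58 by those 3 collagens, 0.53 thinned, 0.23 within clusters, 0.19 within clusters and thinned, and 0.19 by UMIs per cell. Added cluster sets, collagen UMIs, the combined setting and the left-out cluster were chosen after seeing the data. Over all settings, 96 summary values stayed close, 51 moved and 1 turned round; of the gene values, each one gene under one setting, 953 kept their call, 35 passed only under the alternative and 13 lost it. The cause of these changes was not tested. Few UMIs of genes such as Hyou1 limit what small clusters can show.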
